A study of Mus musculus with 9 samples.

Results

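The MYC and MAX network of transcription factors was followed in 9 mouse lymphomas through the 10 genes Myc, Mycn, Max, Mxd1, Mxi1, Mxd3, Mxd4, Mnt, Mga and Mlx. They were chosen by name and taken with all of their probe sets, 26 in number, out of the 18193 genes that the array annotation resolves. The tumours came from mice on a background of 94% C57BL/6. Of these, 4 came from Eμ-Myc mice (Eμ-Myc present, Eμ-TTP-1 absent) and 5 from mice with both Eμ-Myc and Eμ-TTP-1, called double-transgenic here. All 9 tumours therefore carry the Myc transgene. The prefix Eμ denotes the immunoglobulin heavy chain enhancer, which drives a transgene in B lineage cells, and TTP (tristetraprolin) is an RNA-binding protein that promotes the decay of mRNAs with AU-rich elements. Each tumour was hybridised to 1 Affymetrix array, and the labels call the tumours biological replicates. The labels used here give no age for the mice. The comparison asked whether established Myc lymphomas with the TTP transgene differ in this network from those without it.

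MYC proteins bind DNA as dimers with MAX, at the E-box CACGTG and related sites, and activate transcription, in B cells above all of genes for growth, ribosome production and division. The MXD proteins (Mxd1, Mxi1, Mxd3, Mxd4), MNT and MGA also pair with MAX, bind the same sites and mostly repress, MXD and MNT through the SIN3 corepressor with its histone deacetylases and MGA within a Polycomb complex. MLX is a relative of MAX that pairs with some of these repressors and with the glucose-responsive factors encoded by Mlxip and Mlxipl. Deregulated Myc under the heavy chain enhancer is the driver of lymphoma in this mouse model.

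The E-box itself occurs near the start sites of several of these genes. RefSeq windows from 250 bases before to 50 bases after a transcription start (build GRCm38.p6) matched 9 of the 10 genes, all but Myc. In 4 of the 9 the letters CACGTG, which read the same on both strands, were present, and they were present in 8.09% of the 27025 genes of the table and in 12.3% of the 8331 tested genes that matched it. The 4 sites are shown, 5′ to 3′ on the gene's strand with the E-box in capitals, because they are the letters that the proteins of this family recognise.
Max, chr12:76962234-76962263, minus strand: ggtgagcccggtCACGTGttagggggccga
Mlx, chr11:101087238-101087267, plus strand: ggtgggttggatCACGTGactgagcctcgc
Mnt, chr11:74830789-74830818, plus strand: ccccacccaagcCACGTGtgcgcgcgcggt
Mxd4, chr5:34187912-34187941, minus strand: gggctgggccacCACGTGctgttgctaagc
Counted from the start site as base 1, with no base 0, the E-box begins at -3 in Max, -40 in Mlx, -123 in Mnt and -219 in Mxd4. The windows of Mycn, Mxd1, Mxd3, Mga and the 3 start sites of Mxi1 do not hold these letters. Binding was not measured, so a match is a description of sequence and not of occupancy.

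Median intensity ran from 12.2 to 13.4 per array, values that the normalization across arrays brings together and that do not measure RNA quality, and precision is limited by how few arrays there are. Of the 6 tested B cell markers, Cd79b read 14.37 to 15.30 and Cd79a 13.24 to 14.06 on the log2 scale, Pax5 read 8.32 to 9.65, and Cd22 read 11.91 to 12.93 in 8 tumours and 6.99 in double-transgenic replicate 2. Of 9 T cell markers 3 were tested, with a mean of 3.32 to 5.85. Among T cell markers Cd3e stayed under an intensity of 16 in all 9 tumours, while Cd3d reached 8.02 in Eμ-Myc replicate 4 and Cd4 reached 7.50 in double-transgenic replicate 5. Granulocyte markers differed widely, and their means are given beside the levels of Myc, Mxd1 and Mga. In double-transgenic tumours 58.9% of all genes had the higher mean. There 8 of 8 tested granulocyte markers were lower (median log2 difference -2.26), as were 8 of 9 for macrophages (-0.26). For precursor B cells 9 of 9 were higher (1.62). B cell markers had 4 higher and 2 lower, mature B cell markers 2 and 3, T cell markers 2 and 1, and stromal markers 3 and 5. In these lists 0 passed limma after adjustment, and the part of cell types in genotype differences was not tested. In whole tumours fewer cells of a type and less RNA per cell cannot be told apart.

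None of the 10 genes differed between the genotypes by the test. With limma over 10172 genes, 0% passed a Benjamini-Hochberg adjusted p of 0.05, and 0 of the 10 members did, with limma adjusted p from 0.878 to 0.995. At an unadjusted p under 0.05 limma gave 0 of the 10 members, against 5.67% of all genes tested. Of the members, 7 had a higher and 3 a lower mean in double-transgenic tumours, where 58.9% of all genes were higher, and the median log2 difference was 0.03 against 0.05 over all genes. The values of the groups overlapped for each of the 10 (1.64% of all genes did not overlap). Without Eμ-Myc replicate 3 limma called 8 genes and without Eμ-Myc replicate 4 it called 1, none of them a member.

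**Figure D1:**
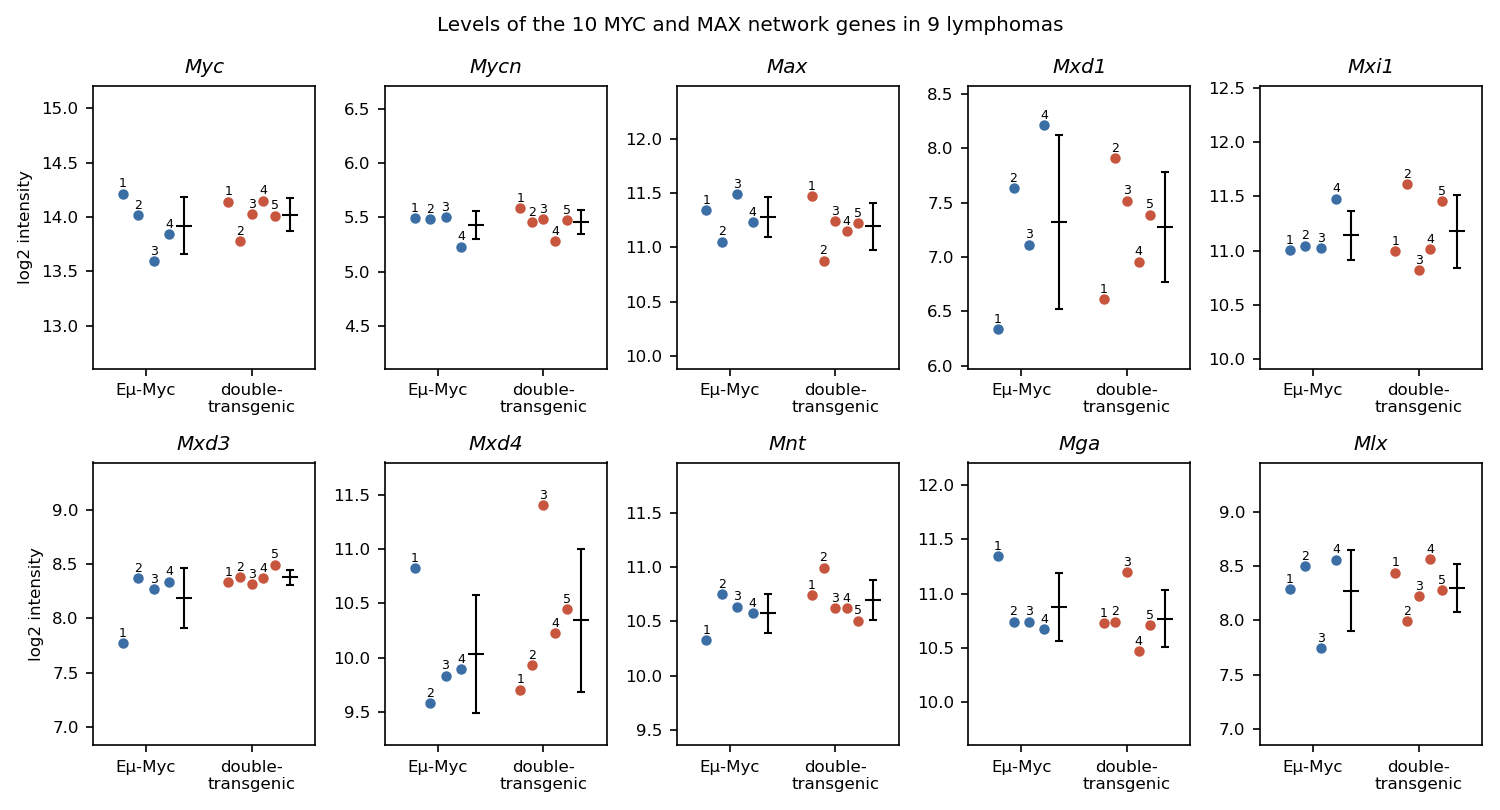
Log2 intensity of each of the 10 genes (vertical axis, every panel spanning the same 2.6 log2 units) in 4 Eμ-Myc and 5 double-transgenic lymphomas, 1 point per tumour with its replicate number, and the mean with SD as bars. The groups overlap in each panel, and among these chosen probe sets Mxd1 and Mxd4 spread the most, 3.67-fold and 3.54-fold from the lowest to the highest tumour.

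Myc, the oncogene that the transgene expresses, was strong and even across the tumours. In Eμ-Myc replicates 1 to 4 it read 14.21, 14.02, 13.60 and 13.84 on the log2 scale, and in double-transgenic replicates 1 to 5 it read 14.14, 13.78, 14.03, 14.15 and 14.01. Eμ-Myc replicate 3 was the lowest of all and Eμ-Myc replicate 1 the highest, so the whole double-transgenic range lay inside that of the Eμ-Myc group. The span from lowest to highest was 1.53-fold, and only 18.5% of tested genes had a smaller SD over the 9 arrays than the 0.20 of Myc. Taken as the double-transgenic mean less the Eμ-Myc mean, here and throughout, the log2 difference was 0.10 (SE 0.15, limma adjusted p = 0.942), and its 95% interval allowed between 0.847-fold and 1.36-fold. The single Myc probe set does not tell the transgene's mRNA from that of the resident gene.

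Genes beside the resident Myc locus on chromosome 15 were read as well. Pvt1, the long non-coding RNA gene next to Myc, read 8.23, 8.001, 7.61 and 7.76 in Eμ-Myc and 8.55, 7.76, 9.35, 8.23 and 8.95 in double-transgenic replicates, which gives 0.67 as log2 difference (SE 0.31, limma adjusted p = 0.845). It was highest in double-transgenic replicate 3, and the groups overlapped. In that tumour the 40 tested genes nearest to Myc stood 0.21 above their medians over the 9 arrays, as did chromosome 15 as a whole (0.21), while Myc itself stood at 0.01. In Eμ-Myc replicate 3, the tumour with the lowest Myc at -0.42 from the median, the neighbours stood at -0.03. Lratd2, the nearest tested gene on the other side, lay between 7.02 and 10.09 in the 4 Eμ-Myc tumours and between 9.43 and 10.61 in the 5 others, and its log2 difference came to 1.44 (SE 0.57, limma adjusted p = 0.845).

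The tumours with the least Myc also had the lowest mean level of genes that MYC activates, and the highest granulocyte marker means. The mean log2 level of 30 MYC-activated genes reached only 12.55 in double-transgenic replicate 2 and 12.60 for Eμ-Myc replicate 3, against 12.80 to 12.98 elsewhere. Genes of wide range weigh heavily on this mean. Ccnd2 ran from 5.55 in double-transgenic replicate 2 to 12.31 in double-transgenic replicate 3. Tert ran from 3.10 in Eμ-Myc replicate 4 to 8.88 in Eμ-Myc replicate 1. Eμ-Myc replicate 3 and double-transgenic replicate 2 were also the tumours lowest in Myc, at 13.60 and 13.78. Their granulocyte marker means were the highest of the 9, 9.62 and 9.86 over 8 tested markers of 9, against 3.79 to 8.38 in the others. The summed intensity of the 9 granulocyte markers spanned 815 to 19815 among Eμ-Myc tumours and 211 to 22276 among double-transgenic ones. Eμ-Myc replicate 2 went against this pattern, with a granulocyte mean of 8.38 and S100a8 at 13.34, close to the 13.24 of Eμ-Myc replicate 3 and the 13.35 of double-transgenic replicate 2, beside Myc at 14.02 and an activated-gene mean of 12.88. B cell marker means, over 6 tested markers of 7, were 11.86 in Eμ-Myc replicate 3, where Eμ-Myc replicates 1 and 4 had 11.88 each, and 11.35 in double-transgenic replicate 2. In the latter the markers diverged, with Cd22 the lowest of the 9 tumours (6.99), Cd79b the highest (15.30) and Ebf1 (12.08) next to the highest. The part of these other cells in the Myc level was not tested.

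**Figure D2:**
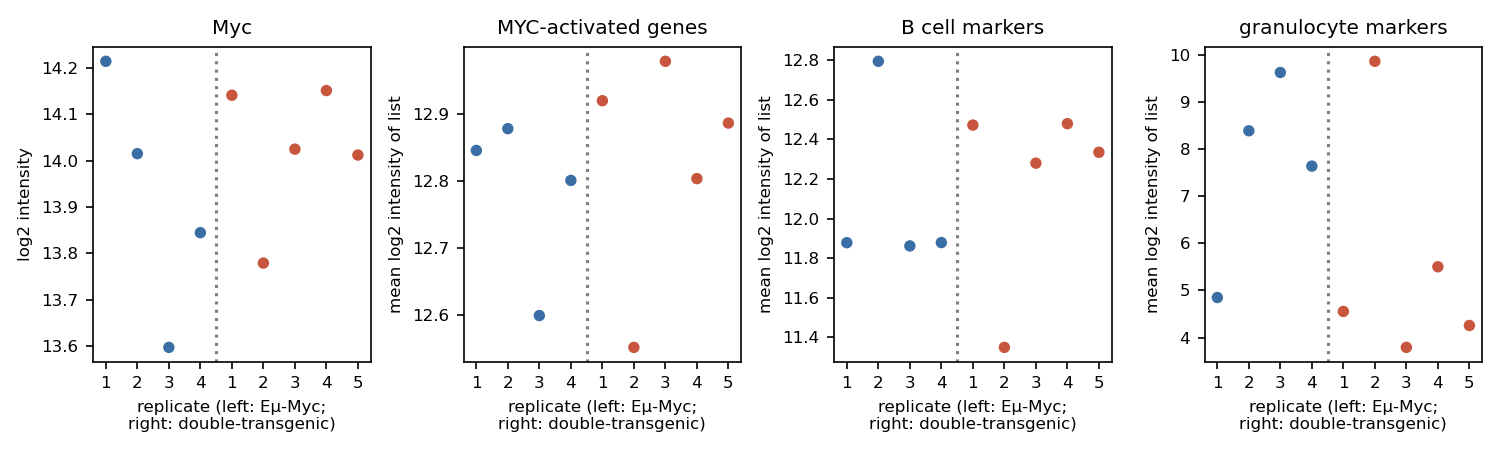
Log2 intensity of Myc, and mean log2 intensity of 30 MYC-activated genes, 6 B cell markers and 8 granulocyte markers, by tumour (horizontal axis, Eμ-Myc left of the dotted line, double-transgenic right; each panel has its own scale). Eμ-Myc replicate 3 and double-transgenic replicate 2 are lowest for Myc (13.60 and 13.78) and for its activated genes (12.60 and 12.55), and highest for granulocyte markers (9.62 and 9.86).

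Between the genotypes the MYC-activated list was level. Of 30 tested genes, 16 had a higher and 14 a lower mean in double-transgenic tumours, with a median log2 difference of 4.97e-03 beside 0.05 over all genes, and 0 passed limma. At the ends stood Tert, the catalytic subunit of telomerase, at 1.41 (SE 1.06) and Cdk4, the G1 kinase, at 0.28 (SE 0.16), against Ccnd2 (cyclin D2) at -0.26 (SE 1.46) and Tfrc (the transferrin receptor) at -0.26 (SE 0.39). Tert read 3.88 and 3.10 in Eμ-Myc replicates 2 and 4, under an intensity of 16, and 8.88 in Eμ-Myc replicate 1, the highest of the 9. Of 14 tested MYC-repressed genes 5 were higher and 9 lower, with a median of -0.37, and 0 passed limma. Klf4 had a log2 difference of -1.06 (SE 0.32) and Col1a1, a collagen gene of stromal cells, -0.67 (SE 1.34), while the kinase inhibitor Cdkn1a had 1.11 (SE 1.06) and the stress gene Gadd45a 1.09 (SE 0.49). The median of this list rested on single arrays, since it was 0.07 without Eμ-Myc replicate 4 and -0.06 without double-transgenic replicate 1.

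Mycn, the family member that is mainly a gene of embryonic and neural tissue, read low in every tumour. Of its 3 probe sets 2 stayed under an intensity of 16, the limit below which these values are dominated by background. The third read 5.49, 5.48, 5.50 and 5.23 in Eμ-Myc and 5.58, 5.46, 5.48, 5.28 and 5.47 in double-transgenic replicates, a span of 1.28-fold, with Eμ-Myc replicate 4 and double-transgenic replicate 4 at the bottom. Its log2 difference was 0.03 (SE 0.11, limma adjusted p = 0.985). Ddx1, the nearest tested gene on chromosome 12 on one side, was strong at 12.31 to 12.80, and Cyria on the other side read 8.07 to 9.73. In Eμ-Myc replicate 3, where the 40 neighbours of Mycn stood 0.30 above their medians, Mycn stood at 0.02.

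Max, the shared partner of the network, varied as little as Myc. It read 11.34, 11.05, 11.49 and 11.23 in Eμ-Myc and 11.47, 10.88, 11.24, 11.15 and 11.22 in double-transgenic replicates, with a span of 1.53-fold. Eμ-Myc replicate 3 and double-transgenic replicate 1 were at the top and double-transgenic replicate 2 at the bottom. The log2 difference was -0.09 (SE 0.15, limma adjusted p = 0.957), with a 95% interval that allowed 0.744-fold to 1.19-fold. Max lies on chromosome 12, and in Eμ-Myc replicate 3 it stood 0.26 above its median beside 0.28 for its 40 nearest tested genes and 0.34 for the chromosome. In double-transgenic replicate 1 it stood at 0.24 and in replicate 2 at -0.35, where the neighbours stood at -0.02 and -0.04.

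**Figure D3:**
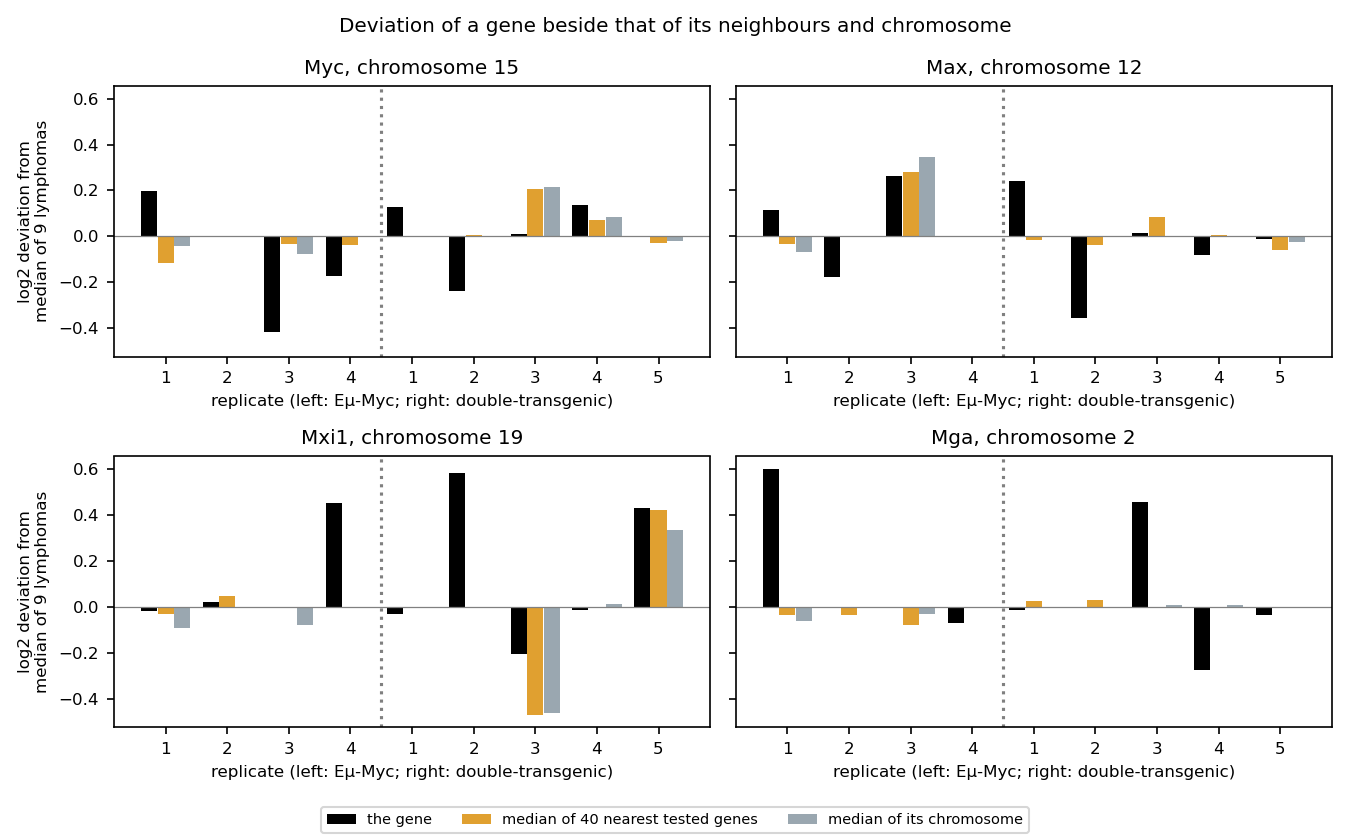
Log2 deviation from the median of the 9 tumours (vertical axis) of Myc, Max, Mxi1 and Mga in each tumour (black), beside the median deviation of the 40 nearest tested genes (orange) and of the whole chromosome (grey); Eμ-Myc left of the dotted line, double-transgenic right. In Eμ-Myc replicate 3 Max (0.26) stands with its neighbours (0.28), in double-transgenic replicate 5 Mxi1 (0.43) stands with its neighbours (0.42), and the high values of Mga (0.60 and 0.46) stand alone.

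Mxd1, a repressor known for its rise as cells leave the cycle and differentiate, myeloid cells among them, had the largest SD among the probe sets chosen to stand for the 10 genes. Its stronger probe set read 6.34, 7.63, 7.11 and 8.21 in Eμ-Myc and 6.61, 7.91, 7.52, 6.96 and 7.39 in double-transgenic replicates. Replicate 1 of each genotype was low, and Eμ-Myc replicate 4 and double-transgenic replicate 2 were high. The span was 3.67-fold, and 72.9% of tested genes had a smaller SD. The log2 difference was -0.05 (SE 0.40, limma adjusted p = 0.995), with a wide 95% interval from -0.95 to 0.86. A weaker probe set lay near the limit at 3.94 to 4.47 and did not follow the first (r = 0.29 over the 9 arrays, a description), and the remaining probe set stayed under an intensity of 16. The mean of stromal and endothelial markers was high in the 2 tumours highest in Mxd1 but did not follow it across the others. The mean of those 8 markers reached 9.83 in double-transgenic replicate 2 and 10.03 for Eμ-Myc replicate 4, the highest of the 9, and their summed intensity spanned 7283 to 48551 among Eμ-Myc tumours and 3081 to 43750 among double-transgenic ones. Double-transgenic replicate 4 had a mean of 9.55 with Mxd1 at 6.96, and the next highest for Mxd1, Eμ-Myc replicate 2 (7.63) and double-transgenic replicate 3 (7.52), had means of 8.37 and 8.02. Within the list the collagens were highest in Eμ-Myc replicate 4, with Col1a1 at 12.41. Its endothelial markers diverged. Pecam1 was the lowest of the 9 there, but Cdh5 (8.64), Kdr (5.49) and Vwf (6.09) were not low. Granulocyte marker means were 4.85, 8.38, 9.62 and 7.63 in Eμ-Myc replicates 1 to 4. In double-transgenic replicates 1 to 5 they were 4.55, 9.86, 3.79, 5.50 and 4.26. They were high, as was Mxd1, in Eμ-Myc replicates 2 and 4 and double-transgenic replicate 2. But Eμ-Myc replicate 3 was also high with Mxd1 at 7.11, and double-transgenic replicate 3 was lowest with Mxd1 at 7.52. The part of stromal cells or granulocytes in the Mxd1 level was not tested.

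Among the 9 other members, Mxd1 had the most negative Pearson's r with Myc and Mxi1 the most negative Spearman's rho, and neither passed the test. For Mxd1 over the 9 tumours r was -0.56 (exact permutation p = 0.115, adjusted over 9 relations 0.516) and rho -0.67 (exact permutation p = 0.0589, adjusted 0.265). Without Eμ-Myc replicate 3 and double-transgenic replicate 2, the tumours farthest from the median of Myc, r was -0.97 over 7. That r is a description without a test, over tumours in which Myc spanned only 13.84 to 14.21. For Mlx r was 0.70 (exact permutation p = 0.0366, adjusted 0.329) and rho 0.53 (exact permutation p = 0.148, adjusted 0.443), but r was -0.25 without the same 2 tumours, so the relation rested on them. Mxi1 had a rho of -0.68 (exact permutation p = 0.0503, adjusted 0.265) with r of -0.41 (exact permutation p = 0.286, adjusted 0.590). The other 6 members had r between -0.42 and 0.36 with adjusted exact permutation p of 0.590 or more. All tests were two-sided, and groups of 4 and 5 are too small to repeat them within a genotype.

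Mxi1, the repressor also known as MXD2, differed between its probe sets. The stronger read 11.01, 11.05, 11.03 and 11.48 in Eμ-Myc and 10.99, 11.61, 10.82, 11.01 and 11.46 in double-transgenic replicates. Double-transgenic replicates 2 and 5 and Eμ-Myc replicate 4 stood above the rest, the groups overlapped, and the log2 difference was 0.04 (SE 0.20, limma adjusted p = 0.990). The weaker probe set read 7.28, 7.18, 7.21 and 8.07 in Eμ-Myc and 8.13, 8.86, 7.90, 7.90 and 7.93 in double-transgenic replicates. All 5 double-transgenic values exceeded 3 of the 4 Eμ-Myc values, and Eμ-Myc replicate 4 lay among them. Its log2 difference was 0.71 (SE 0.26, 95% interval 0.11 to 1.31), with an unadjusted limma p of 0.0259, an adjusted limma p of 0.812 over 18464 probe sets and an exact permutation p of 0.0635. It was the single one of 20 member probe sets under an unadjusted limma p of 0.05, where 6% of all probe sets tested were, 4.16% of all being under it with the higher mean in double-transgenic tumours. The groups overlapped in each of the 20, while 1.78% of all probe sets did not overlap.

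Expression along chromosome 19 can be set beside Mxi1. In double-transgenic replicate 5 Mxi1 stood 0.43 above its median, its 40 nearest tested genes at 0.42 and the chromosome at 0.33. In double-transgenic replicate 3 Mxi1 stood at -0.21, its neighbours at -0.47 and the chromosome at -0.46. In Eμ-Myc replicate 4 and double-transgenic replicate 2, where Mxi1 stood at 0.45 and 0.58, its neighbours stood at 0.00. Those 2 tumours had the highest stromal marker means given above, while double-transgenic replicate 4, next in that mean, had Mxi1 at -0.013, and the part of stromal cells was not tested. Copy number was not measured, so these are expression values along the chromosome.

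Mxd3, an MXD protein typical of cells in S phase, was low in 1 tumour. Its strongest probe set read 7.77, 8.37, 8.27 and 8.34 in Eμ-Myc and 8.33, 8.38, 8.32, 8.37 and 8.49 in double-transgenic replicates, so Eμ-Myc replicate 1 stood below 8 narrowly spaced values. The log2 difference of 0.19 (SE 0.14, limma adjusted p = 0.878) was 0.05 without that array. A further probe set read 6.56, 8.68, 7.20 and 8.34 in Eμ-Myc and 8.16, 9.02, 8.08, 8.38 and 7.94 in double-transgenic replicates, with Eμ-Myc replicates 1 and 3 at the bottom and a span of 5.51-fold, the widest of the 20 member probe sets. Its difference was 0.62 (SE 0.44, limma adjusted p = 0.849), and the weakest of the 3 had 0.32 (SE 0.44, limma adjusted p = 0.919). The proliferation marker Mki67, looked up after these values were seen, was likewise lowest in Eμ-Myc replicates 1 (13.48) and 3 (13.84) and read 14.04 to 14.51 in the other 7. The weakest Mxd3 probe set was lowest in double-transgenic replicate 5 (4.85), beside 4.87 and 4.88 in Eμ-Myc replicates 1 and 3. Mki67 read 14.14 in double-transgenic replicate 5.

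Mxd4 set 2 tumours apart in all 3 of its measurable probe sets. The strongest read 10.82, 9.58, 9.83 and 9.89 in Eμ-Myc and 9.70, 9.93, 11.41, 10.23 and 10.45 in double-transgenic replicates. Eμ-Myc replicate 1 and double-transgenic replicate 3 were the highest, and the other tumours lay between 9.58 and 10.45. The other probe sets read 7.19 and 7.69 in the former, 7.995 and 8.71 in the latter, and at most 6.52 and 7.26 elsewhere. The 3 probe sets correlated at r = 0.94 to 0.97 over the 9 arrays, a description, and the remaining probe set stayed under an intensity of 16. The log2 difference was 0.31 (SE 0.38, limma adjusted p = 0.928), and it was 0.04 without double-transgenic replicate 3. The 40 genes nearest to Mxd4 on chromosome 5 had a median deviation of 0.00 in both of the high tumours, where Mxd4 stood at 0.89 and 1.48.

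Mga, the largest protein of the network, which also carries a T-box DNA-binding domain, was highest in the same tumours as Mxd4. Its strongest probe set read 11.34, 10.74, 10.74 and 10.67 in Eμ-Myc and 10.73, 10.74, 11.20, 10.47 and 10.71 in double-transgenic replicates. Eμ-Myc replicate 1 and double-transgenic replicate 3 stood above the other 7 in this probe set and in both of the next strongest, which read 9.28 and 10.74 in the former and 8.69 and 10.59 in the latter. In the weakest measurable probe set Eμ-Myc replicate 1 was again highest (6.30), while double-transgenic replicate 3 (5.54) lay below replicate 1 (5.58). The remaining probe set stayed under an intensity of 16. The log2 difference of Mga was -0.11 (SE 0.19, limma adjusted p = 0.959), and it was 0.05 without Eμ-Myc replicate 1. On chromosome 2 the neighbours of Mga stood at -0.03 and 0.00 in the high tumours, where Mga stood at 0.60 and 0.46. Granulocyte marker means were 4.85 and 3.79 there, and between 4.26 and 9.86 in the other 7. Precursor B cell marker means, over 9 tested markers of 12, were 10.47 and 11.36 there and 6.26 to 11.82 in the other 7. Neither tumour stood apart by that mean, but single markers diverged. Rag1 was highest of the 9 in these 2 tumours (14.76 and 15.23), while Igll1 (5.84 and 5.31) and Erg (4.70 and 4.66) were not. The part of cell type or stage in the levels of Mga was not tested.

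**Figure D4:**
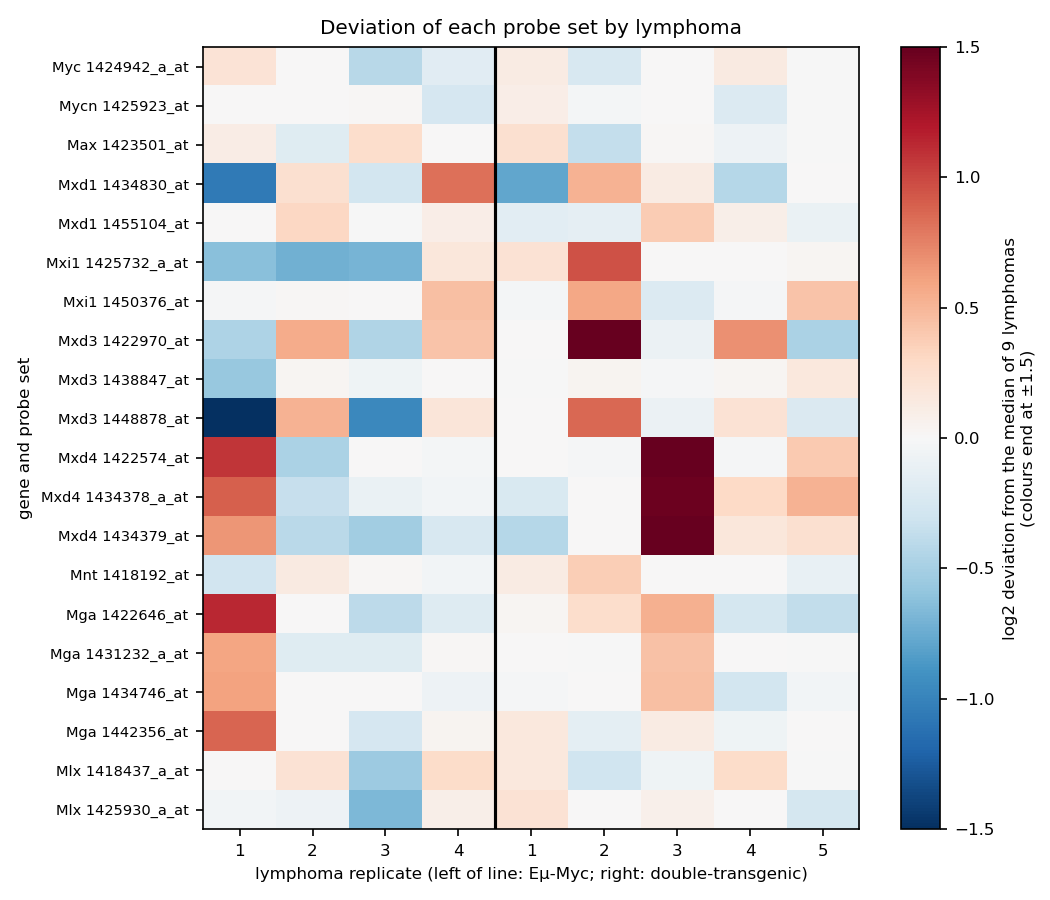
Log2 deviation of each of the 20 measurable probe sets (rows) from its median over the 9 tumours (columns, Eμ-Myc left of the line, double-transgenic right), with colours ending at ±1.5. Eμ-Myc replicate 1 and double-transgenic replicate 3 are red in the Mxd4 rows and in the Mga rows, except that double-transgenic replicate 3 is near the median in the weakest Mga row. Eμ-Myc replicate 1 is blue for the stronger Mxd1 probe set and all 3 of Mxd3.

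Mnt, the most widely expressed of the MAX-binding repressors, varied least among them. It read 10.33, 10.75, 10.64 and 10.58 in Eμ-Myc and 10.74, 10.99, 10.62, 10.62 and 10.51 in double-transgenic replicates. Eμ-Myc replicate 1 was lowest and double-transgenic replicate 2 highest, and only 14.8% of tested genes had a smaller SD. The log2 difference was 0.12 (SE 0.14, limma adjusted p = 0.920), and the second probe set stayed under an intensity of 16.

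Mlx was lowest where Myc was lowest. Its strongest probe set read 8.29, 8.50, 7.75 and 8.56 in Eμ-Myc and 8.44, 7.99, 8.22, 8.56 and 8.28 in double-transgenic replicates, with Eμ-Myc replicate 3 and double-transgenic replicate 2 at the bottom. The other probe set read 7.34 in Eμ-Myc replicate 3, against 7.75 to 8.23 elsewhere, and there double-transgenic replicate 2 (8.01) was not low. The log2 differences were 0.03 (SE 0.20, limma adjusted p = 0.992) and 0.18 (SE 0.18, limma adjusted p = 0.881). Of the glucose-response genes controlled through MLX, 3 of 6 were tested and 0 passed limma, with Txnip, an inhibitor of thioredoxin and glucose uptake, at 0.24 (SE 0.17), Klf10 at 0.14 (SE 0.75) and Hk2 at 0.03 (SE 0.15).

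**Figure D5:**
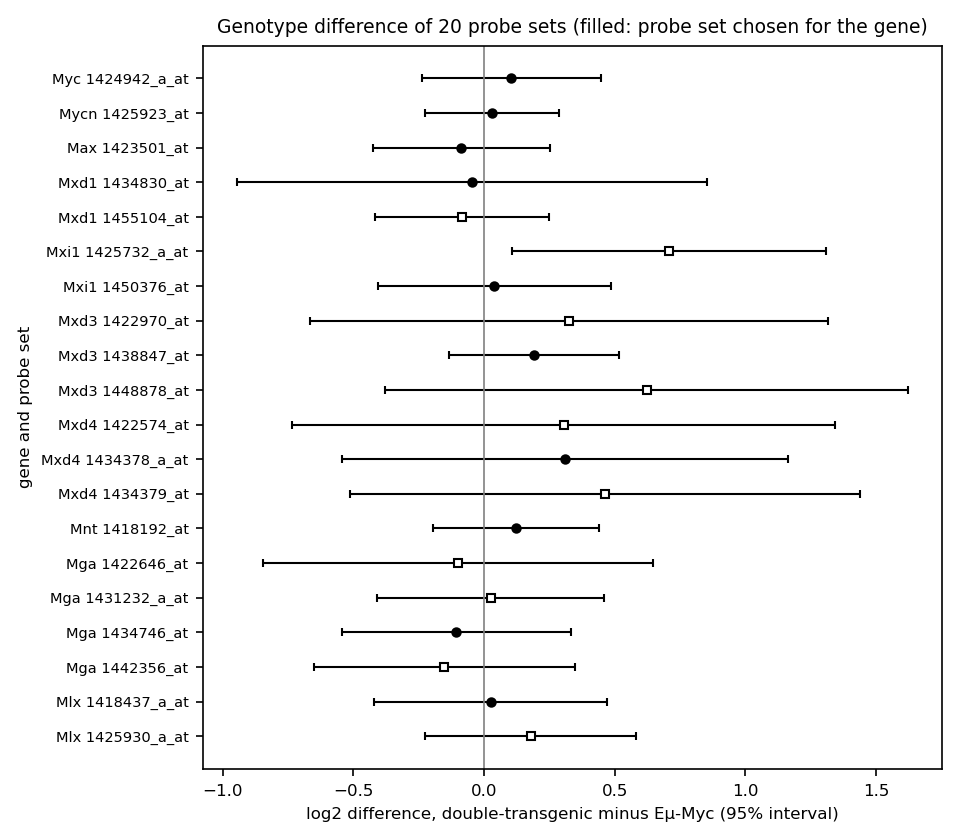
Log2 difference (double-transgenic mean less Eμ-Myc mean) with its 95% interval from limma over all probe sets, for the 20 measurable probe sets (filled circles for the probe set chosen for each gene, open squares for the others). The interval of the weaker Mxi1 probe set (0.11 to 1.31) lies above 0, before adjustment over probe sets, and the other 19 include 0.

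The genes that work with the network were described from lists of partners and regulators, in which 0 genes passed limma over all genes. At an unadjusted limma p under 0.05 there was 1 gene each among the MYC cofactors, the SIN3 and HDAC genes, the turnover genes and the MYC-repressed genes, and 0 in the other lists, where 5.67% of all tested genes were under it, so these counts are near that share. Of 14 tested MYC cofactors, 11 had a higher mean in double-transgenic tumours with a median log2 difference of 0.12, from Ep400, the remodelling ATPase of the TIP60 complex, at -0.09 (SE 0.13) and Brd8 at -0.03 (SE 0.14) to Smarcb1 at 0.19 (SE 0.13) and Dmap1 at 0.33 (SE 0.14). Of 11 tested SIN3 and HDAC genes, 8 were higher with a median of 0.03, from Brms1 at -0.17 (SE 0.27) and the deacetylase Hdac1 at -0.09 (SE 0.13) to the scaffold Sin3a at 0.27 (SE 0.19) and Sap30 at 0.33 (SE 0.13). Of 7 tested partners of MGA, 3 were higher and 4 lower with a median of -0.02, from Ring1 at -0.24 (SE 0.17) and E2f6 at -0.11 (SE 0.36) to Tfdp1 at 0.09 (SE 0.13) and Yaf2 at 0.37 (SE 0.24). Over all genes tested the median was 0.05, and 58.9% had a higher mean in double-transgenic tumours. The median of the MYC cofactors lay above that of all genes, and those of the other lists in this paragraph lay below it.

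Genes that control the MYC protein and mRNA were spread to both sides. Of 16 tested genes for turnover of the MYC protein, 8 were higher and 8 lower with a median of 4.22e-03. Fbxw7, the ubiquitin ligase subunit that marks MYC for degradation, had a log2 difference of -0.37 (SE 0.26) and Btrc one of -0.23 (SE 0.51), while Aurka, a mitotic kinase, had 0.72 (SE 0.31) and Trim32 had 1.71 (SE 0.94), with Eμ-Myc replicate 4 at 4.55 and the other 8 tumours at 8.47 to 10.03. Of 10 tested genes that act on Myc transcripts 6 were higher and 4 lower with a median of 0.03, from Zfp36l1 at -0.20 (SE 0.27) and Fubp1 at -0.14 (SE 0.32) to Ptbp1 at 0.09 (SE 0.12) and Elavl1 at 0.18 (SE 0.11). Zfp36, the gene for TTP itself, had means of 10.57 in Eμ-Myc and 10.55 in double-transgenic tumours. Its log2 difference was -0.02 (SE 0.25, limma adjusted p = 0.995). Whether its probe set reads the transgene's mRNA was not tested, so the TTP level of the groups is not known from these values. Of 6 further family genes 3 were tested, with Mlxip, which encodes the MLX partner MondoA, at 0.16 (SE 0.41), Mycbp at 0.01 (SE 0.25) and Mycbp2 at -0.13 (SE 0.15).

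The genes whose values ran closest to those of Myc included genes of ribosomes and nucleoli. Over 9 arrays and 10171 genes compared, the highest Pearson's r was 0.95 for Klk1, a kallikrein protease, followed by 0.94 for Mrpl1 and 0.93 for Mrps2, both of the mitochondrial ribosome, 0.93 for Ebna1bp2, a nucleolar factor of ribosome production, and 0.92 for Nme2, a nucleoside diphosphate kinase. With so many genes and 9 arrays a few high values are common, so these are descriptions. For Mycn the closest were Mmp24 (r = 0.96), Tcea1 (0.93), Ankrd52 (0.91), Ttc38 (0.90) and Zfp882 (0.89), and Mmp24, at 4.10 to 4.21, lay at the background limit. For Mxd1, the largest in SD among the chosen probe sets, they were Sertad2 (0.94), Dennd5a (0.90), Wdyhv1 (0.90), Ncoa6 (0.90) and Kcnk5 (0.89).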

How the data were processed

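RNA of 9 lymphomas, 4 Eμ-Myc and 5 double-transgenic, was measured on 1 Affymetrix array each. The authors deposited 1 table of GCRMA intensity values on a linear scale (GCRMA per the submitters' processing notes, version not stated in them), and log2 was taken with no pseudocount. The platform annotation gave a single gene for 34945 of the 45037 probe sets, several for 932 and none for 9160. Symbols were updated through RefSeq gene IDs (34741 matched, GRCm38.p6). Where a gene had several probe sets the one of highest mean stood for it, and those with log2 over 4, an intensity of 16, in at least 4 arrays were tested (10172 genes; 18464 probe sets in a second fit). For the members, 20 of 26 probe sets passed. Adjusted p of a gene's chosen probe set comes from the first fit, that of its other probe sets from the second. Tests of the genotype difference were limma 3.58.1 in R 4.3.3 (two-sided, Benjamini-Hochberg) and exact permutation over the 126 splits (smallest p 0.0159, two-sided) with scipy 1.17.1, after a check on simulated data. For correlations with Myc the exact permutation ran over all pairings of the 9 arrays (two-sided, numpy 2.4.6). Its p was adjusted by Benjamini-Hochberg over the 9 relations. Neighbours are the 20 nearest tested genes on each side. Named were the members, up to 2 genes at each end of a list, the nearest tested gene on each side of Myc and Mycn, and the 5 genes most correlated with Myc, Mycn and the most variable other member. Other genes named (Mki67, Zfp36 and the single cell type markers) were chosen after their values were seen. Members and lists were chosen with earlier results of these data known. Scanner files, scan dates and detection calls were not analysed here. Alternatives covered filters, the choice of probe set, scaling, priors, weights, a pseudocount, the replicate block and each array left out.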

Additional observations from a re-analysis of the deposited data

Results flagged for a closer look

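Single tumours lay far from their group in 12 of the 72 sets checked, where chance gives about 1 in 20. The sets share tumours and some share a gene, so they are not independent, and an excess over chance was not tested. Among members, in Eμ-Myc tumours Mycn read 5.23 in replicate 4 (others 5.48 to 5.50), the weaker Mxi1 probe set 8.07 in replicate 4 (others 7.18 to 7.28), the stronger Mxi1 probe set 11.48 in replicate 4 (others 11.01 to 11.05) and Mga 11.34 in replicate 1 (others 10.67 to 10.74). In double-transgenic tumours the weaker Mxi1 probe set read 8.86 in replicate 2 (others 7.90 to 8.13), a further Mxd4 probe set 7.995 in replicate 3 (others 6.11 to 6.52) and the second Mga probe set 10.59 in replicate 3 (others 10.14 to 10.15).

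Among list means, MYC protein turnover was 11.21 in double-transgenic replicate 4 (others 10.997 to 11.05). Precursor B cell markers were 6.26 in Eμ-Myc replicate 2 (others 9.86 to 10.58), and B cell markers were 12.80 in the same tumour (others 11.86 to 11.88) and 11.35 in double-transgenic replicate 2 (others 12.28 to 12.48). Granulocyte markers were 9.86 in double-transgenic replicate 2 (others 3.79 to 5.50).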

How the results depend on the processing

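Across 197 alternative values for the 10 genes, 178 kept their direction, 19 changed sign around small differences, and the lowest limma adjusted p was 0.724. Of 150 for the other 10 probe sets 141 kept theirs, with a lowest limma adjusted p of 0.661. The count of genes past the threshold ran from 0 to 8 when arrays were left out (8 without Eμ-Myc replicate 3, 1 without Eμ-Myc replicate 4). Other settings gave 0. With arrays left out, log2 differences ran from -3.02e-03 to 0.20 for Myc, -0.036 to 0.073 for Mycn, -0.38 to 0.25 for Mxd1, -0.16 to -8.17e-03 for Max, 0.042 to 0.18 for Mnt, 0.053 to 0.25 for Mxd3, 0.044 to 0.57 for Mxd4, -0.068 to 0.15 for Mxi1, -0.21 to 0.050 for Mga and -0.15 to 0.12 for Mlx. For single probe sets they ran from -0.051 to 0.61 (the weakest measurable Mxd4 set), -0.28 to 0.23 (the third strongest Mga set), -0.064 to 0.20 (the second strongest Mga set) and -0.29 to 0.085 (the weakest measurable Mga set). Added quantile normalization turned Mycn to -0.066, Mlx to -0.045 and the second strongest Mga set to -9.52e-03, and array weights turned Mxi1 to -0.092 and Mlx to -3.26e-03 and moved Mxd1 to -0.45, Max to -0.011 and Mnt to 0.047. With the mean of all probe sets of a gene, r of Myc with Mycn was -0.34, and without the arrays farthest from the median of Myc, r with Mlx was -0.25. The cause was not tested.

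With the replicate block, which leaves double-transgenic replicate 5 without a partner and so without weight, Mxi1 was -0.030 and the third strongest Mga set 3.58e-03, and the block changed no call. The numbers were not taken to pair the samples, since deviations of same-numbered tumours correlated at -0.089 to 0.20 and 2 of 4 matched their own number best. The number of arrays limits precision, and members near an intensity of 16, such as Mycn, have poorly determined folds.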
